A study of Mus musculus with 8 samples.

Results

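The miR-297, miR-466, miR-467 and miR-669 families are rodent microRNA (miRNA) families whose hairpins are mostly encoded, as many similar copies, in an intron of the gene Sfmbt2. Their members were taken as all array names that begin with one of these 4 family names, whatever the letter, arm or asterisk that follows, and so without use of any measured value. The rule found 39 of the 611 mouse miRNAs on the array: 3 of miR-297, 14 of miR-466, 10 of miR-467 and 12 of miR-669. An asterisk marks the strand of a hairpin that was taken as the minor one when it was named.

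The study compared kidneys of ICR mice, an outbred stock, after surgical closure of a ureter, which dams urine in the kidney above it and is used as a model of kidney fibrosis. The control group was 4 contralateral kidneys, left without obstruction, and the other group was 4 obstructed kidneys; per the labels, all had been taken 7 days after ligation, so the controls also came from operated mice, and kidneys of unoperated mice were not analysed here. Each RNA sample was hybridised to its own 1-colour Agilent array. The labels do not say whether the kidneys of a group came from separate mice, so that the p-values speak only of the spread among the samples at hand.

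Mature miRNAs are short RNAs cut from hairpins, and each strand of a hairpin can be loaded into an Argonaute protein, where its seed, the bases near the 5′ end, pairs with target messenger RNAs. Sfmbt2 encodes a Polycomb group protein and is an imprinted gene, expressed from the paternal allele in early embryos and extraembryonic tissue. The intronic cluster is best known from placenta, trophoblast and embryonic stem cells, and many of its miRNAs carry runs of alternating UG or CA bases.

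The location in the family label held for most members but not for all. The RefSeq gene table lists 81 precursor genes of the 4 families, of which 71 lie within Sfmbt2 and 10 lie elsewhere. Of the 39 members, 37 matched a precursor by name and both strands of miR-466a did not. For 29 members every matching precursor lay within Sfmbt2, and for the strands miR-466f-3p and miR-466f-5p precursors lay both inside and outside it. For 6 members no precursor lay there: miR-466i is on chromosome 13, miR-466j on chromosome 10, miR-466k and miR-669n on chromosome 3, miR-467f on chromosome 11 and miR-467g on chromosome 5. The name miR-467a matched 10 precursor genes and miR-669a matched 12, and an array gives 1 level for each name, so the copies could not be told apart.

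A mature sequence of the same name was found in the RefSeq table (assembly GRCm38.p6) for 5 members, all of them outside Sfmbt2. They are shown because 3 of them were measured well enough to be tested and because they display the repeat-like letters of these families. Capitals mark the seed, bases 2 to 8 from the 5′ end.
miR-466j: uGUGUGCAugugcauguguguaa
miR-466k: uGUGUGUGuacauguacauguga
miR-467f: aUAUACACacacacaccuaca
miR-467g: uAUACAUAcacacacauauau
miR-669n: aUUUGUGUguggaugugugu
In GRCm38.p6, miR-466j lies at chr10:60960802-60960824 on the plus strand and miR-466k at chr3:85467396-85467418 on the plus strand. miR-467f lies at chr11:69635419-69635439 on the minus strand, miR-467g at chr5:34732872-34732892 on the minus strand and miR-669n at chr3:115979905-115979924 on the plus strand. No seed was shared by any pair of the 5. The letters UGUGUG were found in miR-466j, miR-466k and miR-669n, and ACACAC in miR-467f and miR-467g, each searched on the mature strand as written. Of the 1674 distinct mature sequences in the table, 1.67% held UGUGUG and 0.657% held ACACAC. Since 34 of the members are named only, sequence features were not compared over the families as a whole.

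Detection was counted first. The scanner software marks each spot whose signal is well above background, and a miRNA was taken as above background where, for 1 or more of its probes, over 50% of the replicate spots on that array had the mark. The contralateral kidneys 1 to 4 had 14, 13, 13 and 13 members above background, a mean of 13.25 ± 0.5 (SD, n = 4). The obstructed kidneys 1 to 4 had 17, 13, 20 and 21, a mean of 17.75 ± 3.59 (SD, n = 4). Obstructed kidney 2 was thus level with the contralateral kidneys, while the other 3 obstructed kidneys were above every contralateral one. The mean difference of 4.5 members ranged from 3.42 to 6.08 when single arrays were left out. All mouse miRNAs showed the same order of arrays within the obstructed group, with 240, 228, 228 and 234 above background in the contralateral kidneys and 250, 243, 288 and 310 in the obstructed kidneys. The marks are set on signals before scaling, and the overall brightness of the obstructed arrays, given further on, had this order too. The part of array brightness in these counts was not tested.

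**Figure D1:**
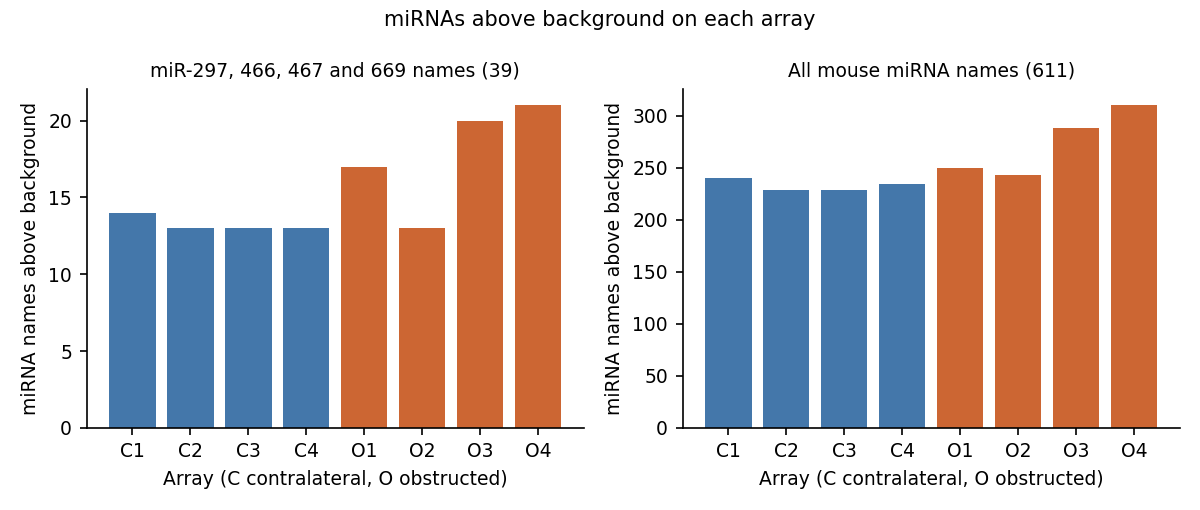
Number of miRNA names above background on each array, for the 39 members at left and for all 611 mouse miRNAs at right, with contralateral kidneys (C1 to C4) in blue and obstructed kidneys (O1 to O4) in orange. The members numbered 13 or 14 on the contralateral arrays and on O2, and 17, 20 and 21 on O1, O3 and O4.

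The families differed in how many members were seen at all. In miR-297, which has 3 names, 2 were above background on no array and the other, miR-297a*, was above it only in 1 obstructed kidney. In miR-466, 9 of 14 were above background on no array and 4 on all 8 arrays. In miR-467, 1 of 10 was above background on no array and 5 on all 8. In miR-669, 5 of 12 were above background on no array and 2 on all 8. Over the 4 families, 17 members (43.6%) were above background on no array, against 47.5% of all mouse miRNAs, and 11 members (28.2%) on all 8, against 33.6%.

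The 17 undetected members were miR-297b-5p, miR-297c, miR-466a-5p, miR-466b-5p, miR-466d-3p, miR-466d-5p, miR-466f-5p, miR-466h, miR-466j, miR-466k, miR-466l, miR-467d, miR-669e, miR-669g, miR-669i, miR-669j and miR-669k. Their summed probe signals, in the scanner's intensity units before any scaling, lay between -10.9 and 14.7 on every array, where values below 0 come from background subtraction. These signals give only an upper bound on the level.

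Some members were above background in obstructed kidneys alone. In all, 8 members (20.5%) were above background on no contralateral array and on at least 1 obstructed array, against 10.8% of all mouse miRNAs. For miR-466a-3p, miR-467a, miR-467e and miR-669a this held on 3 of the 4 obstructed arrays, which is 10.3% of the members against 2.78% of all mouse miRNAs. The array on which these 4 were not above background was that of obstructed kidney 2 each time. The other 4 were miR-467c and miR-669l, each on 2 obstructed arrays, and miR-297a* and miR-669b, each on 1. miR-467b was above background on 3 contralateral and all 4 obstructed arrays, and miR-669h-3p and miR-669h-5p in part of both groups.

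The 4 members seen in 3 obstructed kidneys were named here after their values had been seen. miR-669a, reported as a repressor of the muscle regulator MyoD, had signals before scaling of 19.3, 12.6, 15.1 and 15.6 in contralateral kidneys 1 to 4 and of 60.5, 15.3, 95.5 and 100 in obstructed kidneys 1 to 4. miR-466a-3p had 11.7, 8.47, 8.36 and 7.58 in the contralateral kidneys and 47.4, 12.5, 71.9 and 60.3 in the obstructed kidneys. For both, obstructed kidneys 1, 3 and 4 lay above every contralateral kidney. Obstructed kidney 2 lay within the contralateral range for miR-669a and just above it for miR-466a-3p. miR-467a, linked in earlier work to the matrix protein thrombospondin-1, had signals of 2.18, 3.74, 2.42 and 1.85 in the contralateral and 23.1, 2.21, 41.9 and 42.5 in the obstructed kidneys. miR-467e had 5.11, 6.51, 7.51 and 3.99 in the contralateral and 23.9, 4.58, 37.7 and 35.6 in the obstructed kidneys. For both, obstructed kidneys 1, 3 and 4 lay above the other 5 arrays. All 4 members were picked as above background on those 3 arrays alone. The separation of those arrays is thus largely set by the choice, and nothing is read from it. These signals also carry each array's overall brightness, given further on.

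Because no contralateral array gave a signal well above background for these 4, the fold could only be estimated. The estimate used the mean scaled log2 level over all 4 obstructed kidneys. For each contralateral array it used the higher of the lowest detected probe signal and the miRNA's own signal. The obstructed mean was 1.92-fold higher for miR-669a, 1.91-fold for miR-466a-3p, 1.24-fold for miR-467a and 1.16-fold for miR-467e. These are not strict lower bounds, because the obstructed mean includes obstructed kidney 2, where none of the 4 was above background. There miR-467a and miR-467e were set to the floor, which raises the mean. For miR-669a the contralateral value was its own measured mean, -5.05, so its fold is the measured one. These 4 were not among the miRNAs tested.

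To compare levels, signals were divided by the 75th percentile, on the same array, of the probes that passed background on all 8, the scaled signals of a miRNA's probes were summed, and log2 was taken after a floor of -5.56 was set. A level of 0 therefore equals the 75th percentile of bright probes on the same array. Testing was kept to miRNAs that were above background throughout a group, in all 4 kidneys of either, which left 222 miRNAs and 12 of the 39 members: 4 of miR-466, 6 of miR-467, 2 of miR-669 and none of miR-297. Dim members passed this filter only through the group in which they were above background, which was the case for miR-467b.

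On all 8 arrays no member differed between the groups at an adjusted p under 0.05 by limma, which fits a linear model to each miRNA and shares the spread between miRNAs, while 14.9% of the 222 tested miRNAs did, 1.35% higher and 13.5% lower. That share, which is 33 miRNAs, became 0 when contralateral kidney 1, 3 or 4 or obstructed kidney 1 or 3 was left out (limma, 54 to 67 miRNAs at an unadjusted p under 0.05) and 0 when arrays were scaled over all mouse probes (56 at an unadjusted p under 0.05). One member, miR-467b, had an unadjusted p under 0.05, against 36.5% of all tested miRNAs. The members' adjusted p-values ran from 0.0959 to 0.902. Their median log2 change, obstructed minus contralateral, was -0.85 against -0.14 for all tested miRNAs, with 9 of 12 below 0 and 7 between -1 and -0.8. In none of the 12 were the obstructed levels wholly apart from the contralateral levels, which was so in 23.0% of the tested miRNAs.

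The absence of calls stood beside a wide spread in the obstructed kidneys. The SD over the 4 obstructed kidneys was larger than that over the 4 contralateral kidneys in 12 of 12 members and in 76.6% of all tested miRNAs. Its median was 1.15 on the log2 scale for the members against 0.43 for all tested miRNAs. In the contralateral kidneys the median SD was 0.19 for the members and 0.21 for all. Obstructed kidney 2 held the highest level of all 8 arrays in 10 of 12 members, against 13.5% of all tested miRNAs, and the lowest level was in obstructed kidney 3 or 4 in 11 of 12, against 35.1%.

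**Figure D2:**
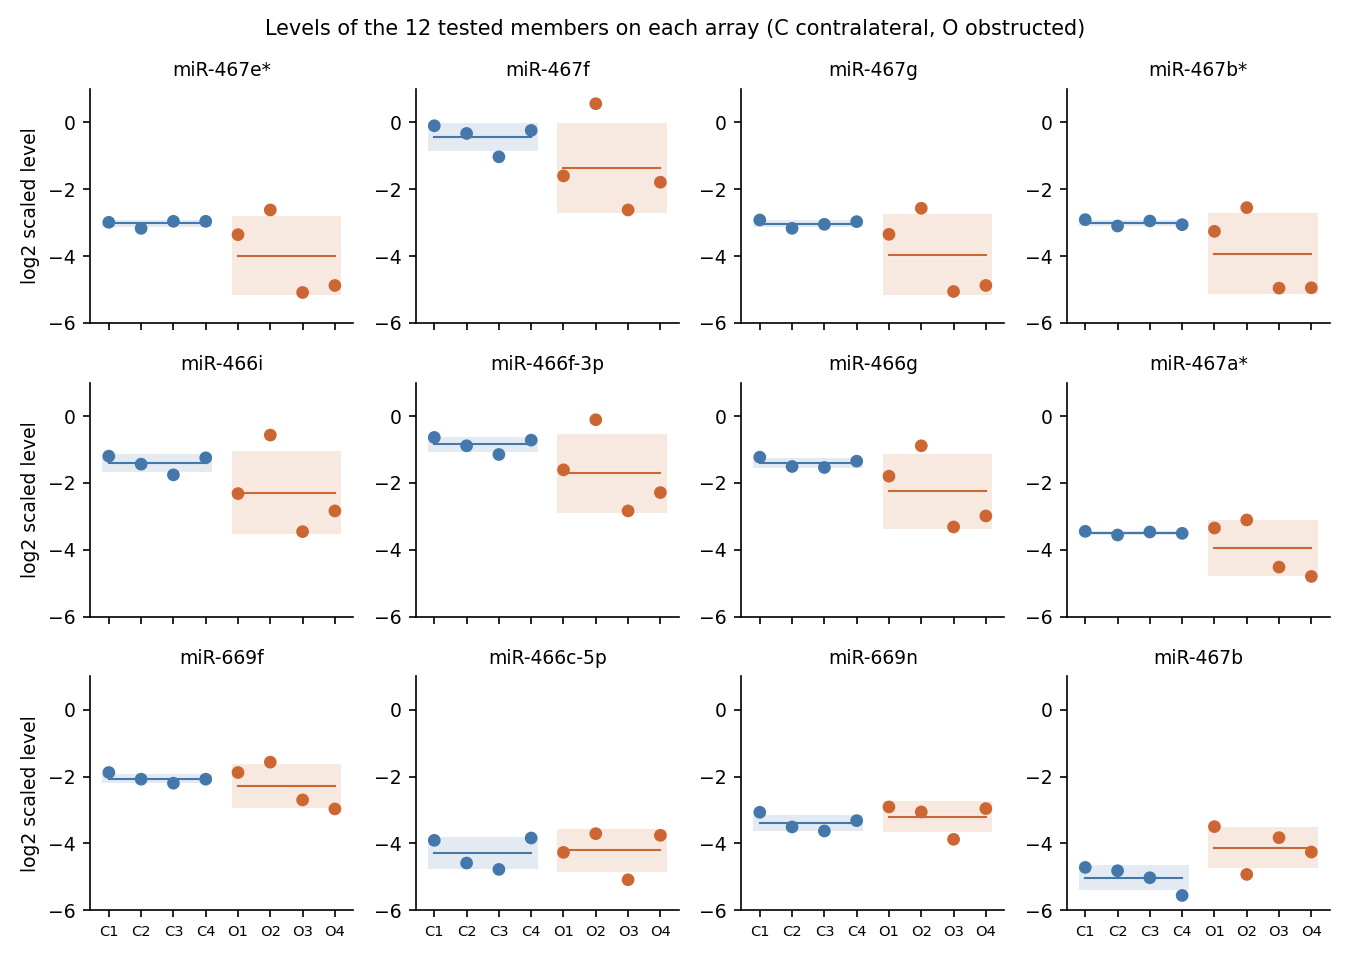
Scaled log2 level of each of the 12 tested members on each array (points; C contralateral in blue, O obstructed in orange), with the group mean (line) and 1 SD on each side (band); each panel has the same axis, but levels are comparable only within a panel. In 10 panels O2 is the highest point of all, and in 11 the lowest is O3 or O4.

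In miR-467f, miR-466f-3p, miR-466g and miR-466i, obstructed kidneys 1, 3 and 4 all lay below the contralateral kidneys and obstructed kidney 2 lay above them. miR-467f, shown above with its ACACAC run, had log2 levels of -0.10, -0.33, -1.03 and -0.24 in contralateral kidneys 1 to 4 and of -1.60, 0.56, -2.62 and -1.79 in obstructed kidneys 1 to 4. Obstructed kidneys 1, 3 and 4 were below every contralateral kidney and obstructed kidney 2 was above every one. The change was -0.94 ± 0.62 (SE, n = 4 each, limma adjusted p = 0.295), and its 2 probes gave -0.96 and -0.91.

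miR-466f-3p, which has precursors inside and outside Sfmbt2, had levels of -0.64, -0.89, -1.15 and -0.72 in the contralateral kidneys and of -1.61, -0.11, -2.84 and -2.29 in the obstructed kidneys. The change was -0.86 ± 0.53 (limma adjusted p = 0.267), and its 4 probes ran from -0.89 to -0.39. miR-466i, on chromosome 13, had -1.20, -1.44, -1.76 and -1.25 in the contralateral and -2.32, -0.57, -3.46 and -2.84 in the obstructed kidneys. As with miR-467f, obstructed kidneys 1, 3 and 4 were below all 4 contralateral kidneys and obstructed kidney 2 was above all 4. The change of miR-466i was -0.88 ± 0.56 (limma adjusted p = 0.279). miR-466g, within Sfmbt2, had -1.23, -1.51, -1.54 and -1.35 in the contralateral and -1.80, -0.89, -3.32 and -2.99 in the obstructed kidneys, with a change of -0.84 ± 0.50 (limma adjusted p = 0.254). It showed the same order, with a smaller step in obstructed kidney 1.

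The minor strands of the miR-467 hairpins, and miR-467g, showed a different balance among the obstructed kidneys. miR-467b* had levels of -2.91, -3.10, -2.95 and -3.06 in contralateral kidneys 1 to 4 and of -3.26, -2.55, -4.96 and -4.95 in obstructed kidneys 1 to 4. miR-467e* had -2.99, -3.17, -2.96 and -2.96 in the contralateral and -3.36, -2.62, -5.09 and -4.88 in the obstructed kidneys. miR-467g had -2.92, -3.17, -3.05 and -2.97 in the contralateral and -3.35, -2.57, -5.06 and -4.88 in the obstructed kidneys. In all 3 the contralateral kidneys lay close together, obstructed kidneys 3 and 4 were far below them, obstructed kidney 1 was slightly below and obstructed kidney 2 was above.

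The 3 names moved nearly as 1. As differences from the contralateral mean, they were never more than 0.12 apart on any obstructed array, although miR-467b* and miR-467e* come from hairpins within Sfmbt2 and miR-467g from chromosome 5. Whether their probes also bind each other's targets was not tested. Their changes were -0.92 ± 0.54, -0.97 ± 0.53 and -0.94 ± 0.54 (SE, n = 4 each), and limma gave adjusted p-values of 0.251, 0.230 and 0.242. Their probes, taken singly, gave smaller changes, from -0.42 to 0. Single probes of these dim miRNAs reach the floor, which cuts a fall short, so these values cannot be set beside the summed changes. miR-467a* had levels of -3.45, -3.56, -3.47 and -3.51 in the contralateral and -3.35, -3.11, -4.52 and -4.80 in the obstructed kidneys, and a change of -0.44 ± 0.38 (limma adjusted p = 0.423). Here obstructed kidneys 1 and 2 were above every contralateral kidney and obstructed kidneys 3 and 4 below.

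The major strand miR-467b, reported to target lipoprotein lipase in macrophages, had a change of the opposite sign. Its levels were -4.72, -4.82, -5.03 and -5.56 in contralateral kidneys 1 to 4, the last at the floor, and -3.50, -4.93, -3.83 and -4.26 in obstructed kidneys 1 to 4. Obstructed kidneys 1, 3 and 4 were above every contralateral kidney and obstructed kidney 2 was within their range. The change was 0.90 ± 0.33 (SE, n = 4 each, limma adjusted p = 0.0959). It was above background in 3 of 4 contralateral kidneys, and its 2 probes gave 0.043 and 0.78.

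Set against its own minor strand on the same array, which removes the scaling, miR-467b stood apart in the same 3 kidneys. Relative to the contralateral kidneys, the log2 difference of miR-467b minus miR-467b* was 1.78, -0.36, 3.15 and 2.71 in obstructed kidneys 1 to 4. The difference was large in obstructed kidneys 1, 3 and 4 and slightly below 0 in obstructed kidney 2. This pair was picked after its values had been seen, and no test was made of it. In signals before scaling, miR-467b had 19.5, 14.8, 16.9 and 11.99 in the contralateral and 61.0, 16.9, 98.8 and 83.0 in the obstructed kidneys. miR-467b* had 68.1, 48.9, 71.3 and 69.9 in the contralateral and 72.1, 88.1, 45.2 and 51.7 in the obstructed kidneys. The words major and minor follow the names only. In every contralateral kidney the strand named minor gave the higher signal, although levels are not comparable between names. In obstructed kidneys 1, 3 and 4 the signal of miR-467b was thus above every contralateral kidney, while that of miR-467b* was below every contralateral kidney in obstructed kidney 3, within their range in obstructed kidney 4 and slightly above them all in obstructed kidney 1.

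**Figure D3:**
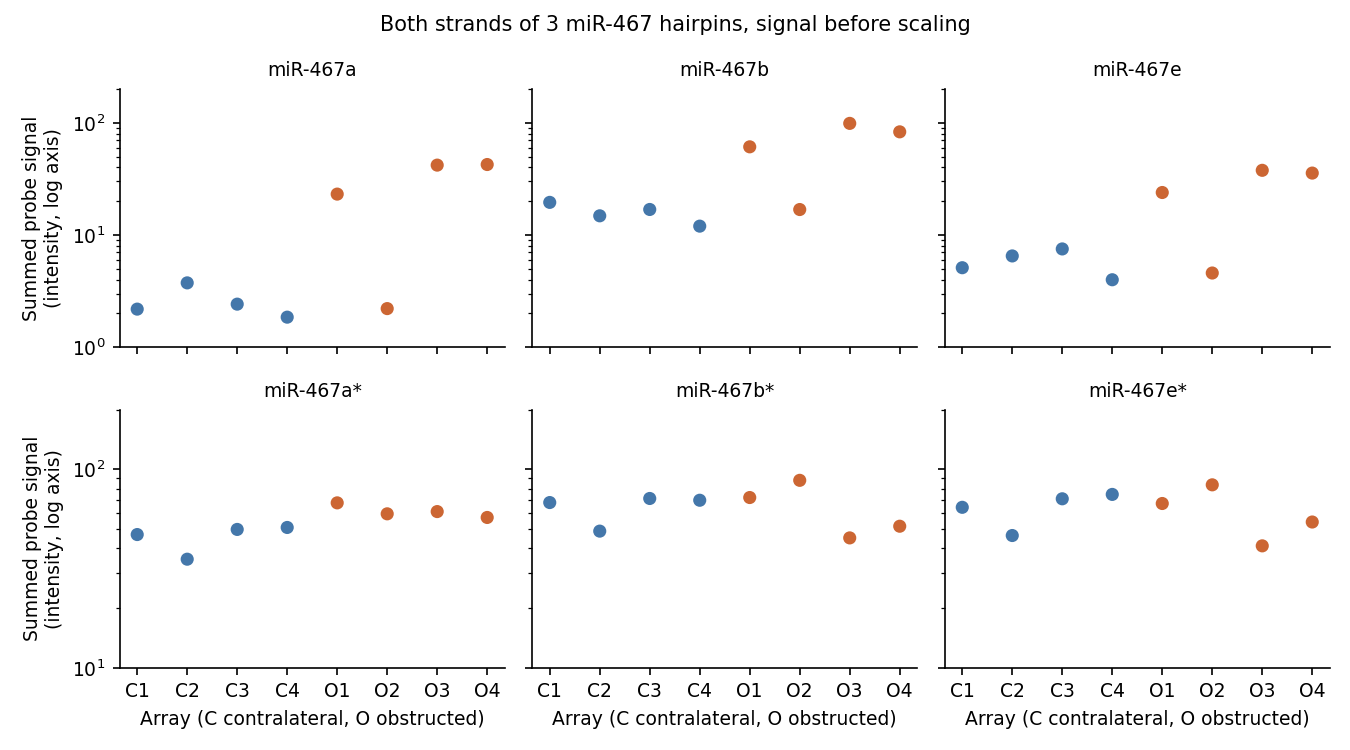
Summed probe signal before scaling (intensity, log axis, with a different range in each row) of the major strand (top) and minor strand (bottom) of the miR-467a, miR-467b and miR-467e hairpins on each array, contralateral in blue and obstructed in orange. Major and minor follow the names, and in every contralateral kidney the strand named minor gave the higher signal. The major strands are high in O1, O3 and O4 and near the contralateral kidneys in O2. The minor strands stay within a narrow range, with all 4 obstructed kidneys above the contralateral ones for miR-467a*.

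The other tested members had smaller changes. miR-669f had levels of -1.88, -2.08, -2.2 and -2.08 in contralateral kidneys 1 to 4 and of -1.88, -1.57, -2.70 and -2.97 in obstructed kidneys 1 to 4, a change of -0.22 ± 0.31 (limma adjusted p = 0.635). miR-669n, on chromosome 3 and with the UGUGUG letters shown above, had -3.07, -3.51, -3.63 and -3.32 in the contralateral and -2.91, -3.06, -3.88 and -2.96 in the obstructed kidneys, a change of 0.18 ± 0.25 (limma adjusted p = 0.635). Its obstructed kidney 3 was below every contralateral kidney and the other 3 obstructed kidneys were above every one. miR-466c-5p had -3.91, -4.59, -4.78 and -3.84 in the contralateral and -4.27, -3.71, -5.09 and -3.76 in the obstructed kidneys, a change of 0.075 ± 0.36 (limma adjusted p = 0.902). In miR-669f and miR-466c-5p obstructed kidney 2 was the highest of all 8 arrays and in miR-466c-5p obstructed kidney 3 was the lowest.

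By position, the 7 tested members with all precursors in Sfmbt2 had a median log2 change of -0.44, from -0.97 to 0.90, with 5 below 0. The 4 with no precursor there had a median of -0.91, from -0.94 to 0.18, with 3 below 0. The range of these 4 lay within that of the 7, which reached further up, and the difference between these sets was not tested. By family, the medians were -0.85 over 4 members of miR-466, -0.93 over 6 of miR-467 and -0.019 over 2 of miR-669.

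The size of the changes, and for 4 of the 12 members the sign, depended on the scaling: miR-466f-3p, miR-466g, miR-669f and miR-467a* were below 0 with it and above 0 without it. The arrays of obstructed kidneys 1, 3 and 4 were brighter than every contralateral array, and that of obstructed kidney 2 was within the contralateral range. The 75th percentiles were 689.1, 514.3, 1403.0 and 1594.7 intensity units in obstructed kidneys 1 to 4 against 513.2, 417.4, 552.4 and 582.4 in contralateral kidneys 1 to 4. Without scaling, the tested miRNAs as a whole had a median log2 change of 0.74 instead of -0.14, and the 12 members one of 0.03. Set against that overall median, the members' median was -0.71 both with and without scaling, with 9 of 12 members below it. Without scaling no member was called by limma, 2 had an unadjusted p under 0.05, and 1.35% of all tested miRNAs were called.

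In signals before scaling, 7 members had mean log2 changes near 0 and the means of the other 5 were higher in the obstructed kidneys. miR-466g had 219, 147, 189 and 228 in the contralateral and 198, 278, 140 and 201 in the obstructed kidneys. miR-466f-3p had 329.1, 225.7, 248.8 and 354.5 in the contralateral and 225.7, 476.4, 195.8 and 327.1 in the obstructed kidneys. In both, obstructed kidney 2 was the brightest array and obstructed kidney 4, one of the brightest arrays in general, lay within the contralateral range. The unscaled log2 changes of miR-466f-3p, miR-466g, miR-466i, miR-467b*, miR-467e*, miR-467f and miR-467g lay between -0.084 ± 0.45 and 0.043 ± 0.44 (SE, n = 4 each).

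None of the 5 brighter members passed the test. miR-669f had signals from 98.96 to 139.8 in the contralateral and from 173.0 to 216.6 in the obstructed kidneys, so that every obstructed kidney was above every contralateral one. miR-467a*, with 46.9, 35.3, 49.8 and 51.0 against 67.8, 59.7, 61.3 and 57.2, showed the same separation, and so did miR-669n. These were 3 of the 12 members, against 5.41% of all tested miRNAs, in which the groups did not overlap before scaling. The unscaled changes were 0.66 ± 0.43 for miR-669f and 0.44 ± 0.43 for miR-467a*, both of the opposite sign to the scaled ones. They were 1.06 ± 0.48 for miR-669n, 0.96 ± 0.51 for miR-466c-5p and 1.79 ± 0.54 for miR-467b (limma adjusted p = 0.0761).

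**Figure D4:**
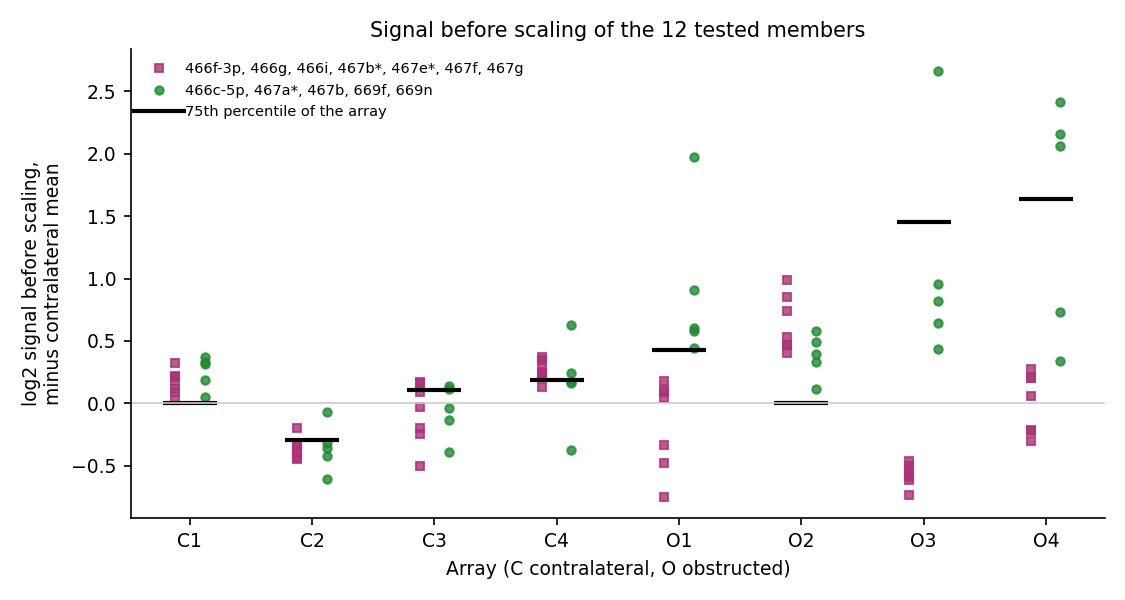
Log2 signal before scaling of the 12 tested members on each array, minus each member's contralateral mean, for the 7 members with scaled changes between -1 and -0.8 (squares) and the other 5 (circles); black bars show the array's 75th percentile on the same footing. On O3 and O4 the bar lies far above the squares, and on O2 the squares lie above the bar.

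Obstructed kidney 2 decided the calls. limma's array weights gave it 0.114, the lowest weight of the 8. Without it, and with scaling, limma called 1 of the 12 members higher and 7 lower, against 20.7% of all tested miRNAs called higher and 30.2% lower. The median of the members was then -1.34 against -0.17 for all. With the array weights in place of leaving it out, 1 member was again called higher and 7 lower, against 24.3% and 37.8% of all. The choice to single out this array was made with its values known, and these results stand beside those of 8 arrays.

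The member called higher without obstructed kidney 2 was miR-467b, at 1.17 ± 0.26 (SE, n = 4 and 3, limma adjusted p = 0.0097). It had entered the test through the obstructed kidneys, in which it was high, and contralateral kidney 4 was at the floor, so that this call is partly set by the filter. The 7 called lower were miR-467f, miR-466i, miR-467e*, miR-466f-3p, miR-467g, miR-467b* and miR-466g. Among these miR-467f changed by -1.58 ± 0.32 (limma adjusted p = 0.00625), a fall of 2.98-fold, and miR-466g, the smallest, by -1.29 ± 0.35 (limma adjusted p = 0.0192). miR-467a* had -0.72 ± 0.33 (limma adjusted p = 0.110), and miR-669f, miR-669n and miR-466c-5p were not called either. The 3 obstructed kidneys lay wholly above the contralateral ones in 1 member and wholly below in 7, against 23.9% and 32.4% of all tested miRNAs.

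Without scaling and without obstructed kidney 2 none of the 7 falls was called. Instead miR-467b, miR-669n and miR-466c-5p were called higher, at 2.35, 1.31 and 1.08 (limma adjusted p = 9.16e-06, 0.00983 and 0.0416). Of all tested miRNAs, 50.9% were called higher and 0.901% lower. The call of miR-467b is again partly set by the filter, which it passed only through the obstructed kidneys, and the array was left out with its values known. The calls for lower members therefore hold against the 75th percentile of each array and not for the signal itself. With testing opened to miRNAs above background on at least 1 array, still without obstructed kidney 2, 22 members were tested, 4 were called higher and 7 lower, against 17.1% and 22.7% of all. The 4 were miR-467b, miR-669a, miR-466a-3p and miR-467a. The last 3 entered this test only through the obstructed kidneys in which they were high, so their calls are given as a count and nothing is read from them. The 7 lower here left out miR-467b* (limma adjusted p = 0.0571) and included miR-669h-3p, at -1.04 (limma adjusted p = 0.0142). The level of miR-669h-3p was at or near the floor in obstructed kidneys 3 and 4.

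**Figure D5:**
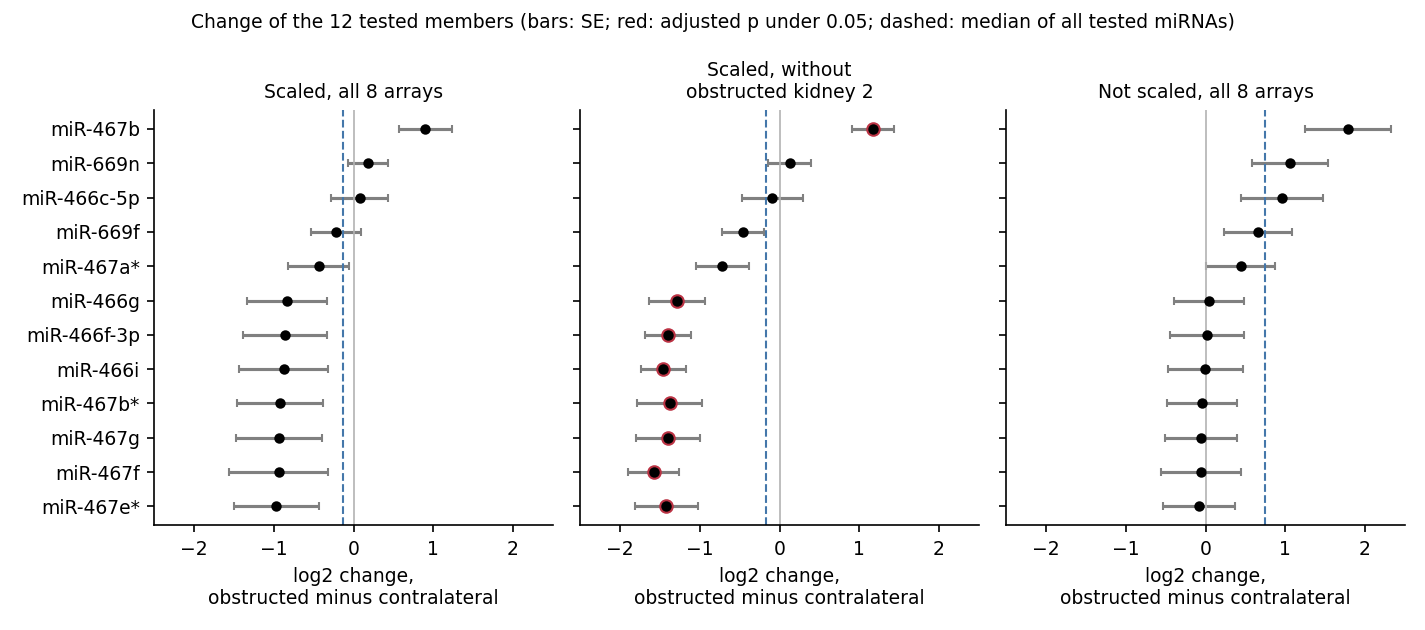
Log2 change, obstructed minus contralateral, of the 12 tested members with its SE, for all 8 arrays scaled (left), scaled without obstructed kidney 2 (middle) and all 8 arrays not scaled (right); points ringed in red have an adjusted p under 0.05 by limma and the dashed line is the median of all 222 tested miRNAs. The middle panel has 8 ringed points, 1 above and 7 below 0, and the outer panels have none.

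The arrays lay on 1 slide in 2 rows, each with kidneys 1 and 2 or kidneys 3 and 4 of both groups. Within slide row 2, limma called 1 member higher and 7 lower, against 9.01% and 22.1% of all tested miRNAs, with a member median of -1.60. These 7 were not the same as those called lower without obstructed kidney 2. They included miR-467a* (limma adjusted p = 0.0349) and left out miR-467f (limma adjusted p = 0.0706). Within slide row 1, which holds obstructed kidney 2, the member median was 0.10 and no miRNA was called (limma, none of the members and 1 of all at an unadjusted p under 0.05). Each row has only 2 arrays a group.

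Markers of other cell types were set beside single members, which were picked with the values known. The 7 leukocyte miRNAs on the array, such as miR-142-3p and miR-223, were each above background on at least 1 array and had a summed scaled level of 1.98 to 2.71 in the contralateral and 1.88 to 7.69 in the obstructed kidneys. The mean of the 5 tested ones, as a log2 difference from the contralateral mean, was 1.88, -0.37, 1.79 and 1.70 in obstructed kidneys 1 to 4. For miR-467b the same differences were 1.53, 0.10, 1.20 and 0.77. Both were high in obstructed kidneys 1, 3 and 4 and not in obstructed kidney 2. However, miR-467b had entered the test only through the obstructed kidneys, in which it was high, so nothing is read from this likeness. The part of leukocytes in the result was not tested, and in whole kidney more cells of a type and more RNA per cell cannot be told apart.

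Of the 3 erythroid miRNAs, which include miR-451, 2 were above background on all arrays and the third on part of them, with a summed level of 5.16 to 44.6 in the contralateral and 5.15 to 24.4 in the obstructed kidneys. The mean difference of these from the contralateral mean was -0.44, 1.33, -0.92 and -0.60 in obstructed kidneys 1 to 4, against -1.17, 0.98, -2.19 and -1.36 for miR-467f. The signs were the same on each obstructed array. Among the contralateral kidneys alone the erythroid sum varied over the wide range given, while miR-467f ran only from -1.03 to -0.10. The pair was picked with its values known, and the part of blood in the result was not tested. The kidney tubule miRNAs, of which 5 of 6 were above background on all arrays and miR-215 on none, had a summed level of 28.5 to 33.0 in the contralateral and 17.7 to 22.5 in the obstructed kidneys. On obstructed kidney 2 their mean difference was -0.59, near the -0.54, -0.57 and -0.84 of obstructed kidneys 1, 3 and 4. It was thus of the opposite sign to the 0.98 of miR-467f there. On all 8 arrays limma called 2 of the 5 tested tubule miRNAs and 1 of the 2 endothelial ones lower, against 13.5% of all. The endothelial mean differences were -0.74, -0.68, -0.56 and -0.24 in obstructed kidneys 1 to 4. The 1 tested striated muscle miRNA had -0.31, -1.07, -0.55 and -1.32. The 1 tested smooth muscle miRNA had 0.059, -0.51, 0.32 and 0.55.

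Most of the listed miRNAs that mark trophoblast and early embryo, and most of those from imprinted genes other than Sfmbt2, were above background on no array. Of 14 miRNAs of the miR-290 to miR-295 families, which mark trophoblast and early embryo, 11 were above background on no array and none on all 8. Of 60 miRNAs of the imprinted Dlk1-Dio3 cluster, 50 were above background on no array and 1 was tested, at 0.15. Of 9 miRNAs of other imprinted genes 6 were above background on no array, and 2 were tested with a median of -0.13.

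Repeat-like letters were also found outside the families. Of the non-members with a RefSeq mature sequence, 6 held UGUGUG or ACACAC and 4 were tested, of which none was called by limma on 8 arrays. Their log2 changes were -0.56 ± 0.40 for miR-574-3p, -0.18 ± 0.43 for miR-1187, -0.095 ± 0.15 for miR-362-3p and -0.093 ± 0.43 for miR-574-5p (SE, n = 4 each). Only 26.7% of the array's mouse miRNAs had a RefSeq mature sequence of the same name, so this list is partial.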

How the data were processed

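Per the file headers, the deposited intensity values are spot signals from Agilent Feature Extraction 10.7.3.1 (10.1.1 per the submitters' processing notes), on an array design of build mm9, with local background subtracted, spatial trends removed and no scaling between arrays. Deposited marks of 0 or 1 say, per the file headers, whether a spot was saturated, an outlier or well above background. Per the labels' protocols, 100 ng of total RNA was labelled with Cy3. Each array had 13715 spots, 13000 of them not controls, no spot was saturated, and 2.27% to 3.55% of mouse spots were marked as outliers and left out.

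From these, replicate spots were averaged to 1759 mouse probes for 611 miRNAs, and the members had a median of 20 spots each. Arrays were scaled to the 75th percentile of the 371 probes that passed background on all of them, each miRNA's probes were summed, and log2 was taken above a floor of 0.0213, so changes of dim miRNAs are understated. The lmFit and eBayes functions of limma 3.58.1 (R 4.3.3) were run, two-sided, over 222 miRNAs with Benjamini-Hochberg adjustment over all of them. The limma fit was tested on simulated log2 levels, with independent noise of the same SD in both groups. The wider spread of the obstructed kidneys was therefore not simulated. Files were read with pandas 2.3.3 and numpy 2.4.6 under Python 3.11.15, and figures drawn with matplotlib 3.10.9.

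The members follow from their names alone, but the 4 families and the lists were chosen with earlier results of these data known. Values on every array were given by rule for called members, the brightest of each family and then tested members by mean level; miR-297a*, at or near the floor, had log2 levels from -5.56 to -5.30. Precursor names and sequences are RefSeq's. Precision is limited by 4 arrays a group, and the spots of a named probe had a median coefficient of variation of 12.6%. Other scalings, background correction, floors, filters, weights, blocks and arrays left out were tried.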

Additional observations from a re-analysis of the deposited data

Results flagged for a closer look

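In groups of 4 arrays, a value was marked when its gap to the nearest other array, divided by the range of the group, passed Dixon's critical value for groups of that size. Of 26 groups looked at, 2 had such a value, and chance gives about 1 in 20. miR-669n had a scaled log2 level of -3.88 in obstructed kidney 3, far below the other 3 obstructed kidneys. The number of members above background was 14 in contralateral kidney 1 and 13 in the other 3 contralateral kidneys, a gap of a single miRNA.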

How the results depend on the processing

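The direction of the difference in members above background, 4.5, held under all 12 alternatives, from 3.25 to 6.08. The count of called members, 0, became 8 with array weights, 8 within slide row 2, and 0 to 8 when single arrays were left out, where only leaving out obstructed kidney 2 gave any. The alternatives without obstructed kidney 2 and with another choice changed were added after seeing the data, and gave 3 called members without scaling and 11 of 22 with the filter of at least 1 array, which admits dim members through the kidneys in which they are high. The median log2 change of -0.85 became 0.03 without scaling, 0.029 with the unscaled series matrix, -0.25 with the mean of log2 probe values, -0.021 with the filter of at least 1 array and 0 with no filter. It became -1.34 with array weights, 0.10 within slide row 1, -1.60 within slide row 2 and -1.34 to -0.48 with single arrays left out. Without obstructed kidney 2 it was -0.16 unscaled and -0.077 with the filter of at least 1 array. Except that the filters added dim members near the floor, the cause was not tested.

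Of the values of single members under alternatives, 273 kept their direction and side of the threshold, 34 passed it newly and 28 reversed; limma adjusted p-values ran from 9.16e-06 to 1. Without scaling and with the series matrix the values were 0.018 and 0.02 for miR-466f-3p, 0.66 and 0.66 for miR-669f, 0.043 and 0.038 for miR-466g, and 0.44 and 0.44 for miR-467a*. Unscaled without obstructed kidney 2, miR-669f had 0.72 and miR-467a* 0.45. Within slide row 1, miR-669f had 0.25, miR-466g 0.029, miR-467b* 0.10, miR-467g 0.085, miR-467e* 0.093 and miR-467a* 0.28. With normexp background correction, miR-669n had -0.78, miR-466c-5p -0.99 and miR-467b -0.83, and with array weights miR-669n had -0.10 and miR-466c-5p -0.55. miR-466c-5p had -0.12 within slide row 2 and -0.091 with the filter of at least 1 array without obstructed kidney 2. With single arrays left out, miR-466c-5p ran from -0.092 to 0.37 and miR-669f from -0.46 to 0.0089.

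Same-numbered kidneys of the groups correlated at -0.347, 0.222, 0.622 and 0.0147, and 3 of 8 samples correlated best with their own number. The samples were therefore not treated as pairs, though the labels do not say whether same-numbered kidneys share a mouse. With a replicate block the members' median stayed at -0.85 with 0 called (1 at an unadjusted p under 0.05), and the 33 calls of all miRNAs became 0 (67 at an unadjusted p under 0.05). Dim members near the floor limit what these arrays resolve.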
